A study of Saccharomyces cerevisiae with 30 samples.

Results

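The transcripts of 1 yeast culture at the end of an alpha-factor arrest were compared with those of the same culture 10 min after release. The comparison covered the 5137 of 7127 features in the deposited table whose mean over 30 time points was at least 10 transcripts per 1000000 (TPM), and it used 2 of those time points, the columns for 0 and 10 min. The culture was a MATa bar1 strain of Saccharomyces cerevisiae in the BF264-15D background, in YEP medium with dextrose. It was grown at 38.5°C, held in alpha-factor for 150 min, and released into fresh medium at 38.5°C, with further samples every 10 min up to 290 min. All samples share the bar1 mutation, which removes the protease that degrades alpha-factor, and all share the high temperature. At the release the pheromone was removed, the medium was replaced and the cells were handled. The parts of these 3 changes cannot be told apart. Whether the 0 min cells were frozen before or after the resuspension is not given in the sources used here.

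Alpha-factor is the peptide pheromone of MATalpha cells. In MATa cells it binds the receptor Ste2 and acts through a kinase cascade on the transcription factor Ste12, which switches on genes for mating and cell fusion, while Far1 holds the cell cycle in G1. When the pheromone is gone, kinase bound to G1 cyclins releases the transcription factors SBF and MBF, which switch on the genes for budding and DNA replication. Genes for sulfur assimilation (driven by Met4 with Cbf1), for building ribosomes and for chaperones (driven by Hsf1) are known instead for following the supply of nutrients, growth and protein folding.

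Each time point has 1 library, so the change from 0 to 10 min has no replicate and no test was made. The yardstick was the same feature's change over each of the 13 steps of 10 min between 160 and 290 min. Changes are given as log2 of (scaled TPM + 1) at 10 min minus the same at 0 min, where scaled TPM is the deposited TPM divided by a median-of-ratios factor for its time point. A feature was called lower or higher when its change was at least 2-fold and larger than each of its own 13 later steps. The levels printed below are TPM as deposited. A value in brackets is such a change, and a fold printed beside it is the ratio of scaled TPM without the added 1, which is larger than the change implies where a level is low. The factors were 0.778 at 0 min and 0.748 at 10 min, against 0.904 to 1.03 from 160 to 290 min, so deposited values of the first 2 time points sit somewhat low beside late ones on the scaled measure. TPM keep no read number, so the depth behind a value is unknown. The study's own detector of anomalous libraries picked out the earliest time points of the series, both compared libraries among them. The authors did not mark these points by eye. They suspected that the release from arrest could give them a biological origin, and did not interpolate them. With 1 library at each, a difference between the libraries and a difference between the cells cannot be told apart.

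Between 0 and 10 min, 105 features were called lower, which is 2.04% of the 5137, and 161 were called higher, which is 3.13%. The changes had an SD of 0.60 log2 units over features and a median of -0.02. The 13 later steps had SDs of 0.26 to 0.41, and judged by the same rule, each against the other 12, they gave 3 to 47 called features with a median of 8. The richest of them was the step from 270 to 280 min, with 41 features higher. From 10 to 20 min the SD was 0.40 with 43 features lower and 26 higher, and from 20 to 30 min it was 0.32 with 2 lower and 15 higher. The first step was therefore the widest of those set side by side here, and it had the most called features in either direction.

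**Figure D1:**
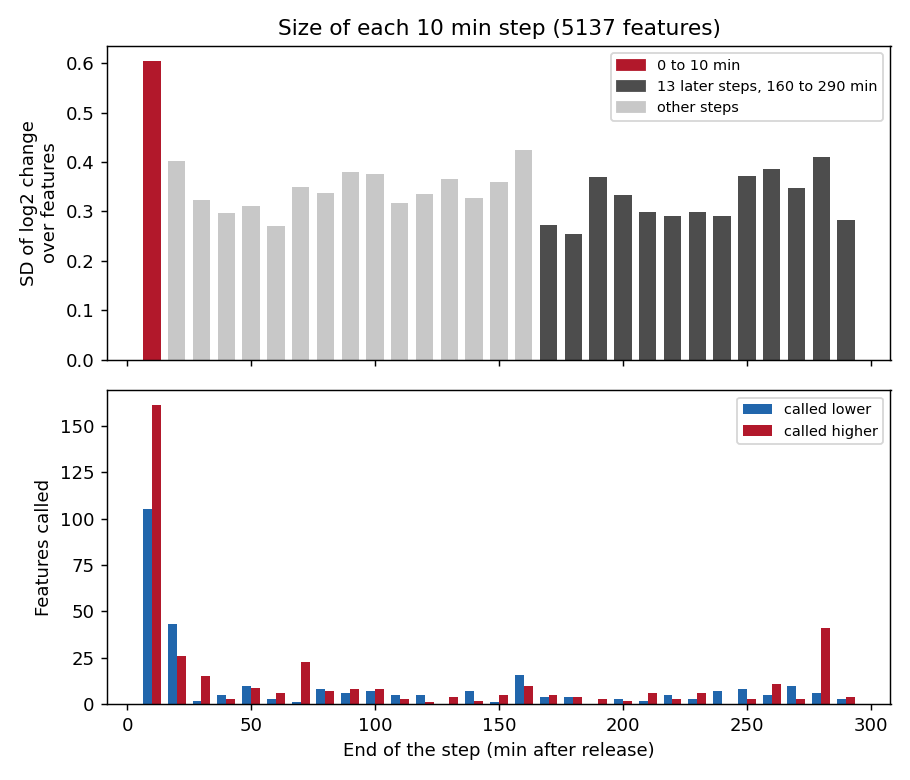
SD of the log2 changes over 5137 features (upper panel) and number of features called lower or higher (lower panel) for each 10 min step, plotted at the minute the step ends. The bar for 0 to 10 min reaches 0.60 with 105 features lower and 161 higher, and the 13 dark bars from 160 to 290 min lie between 0.26 and 0.41.

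**Figure D2:**
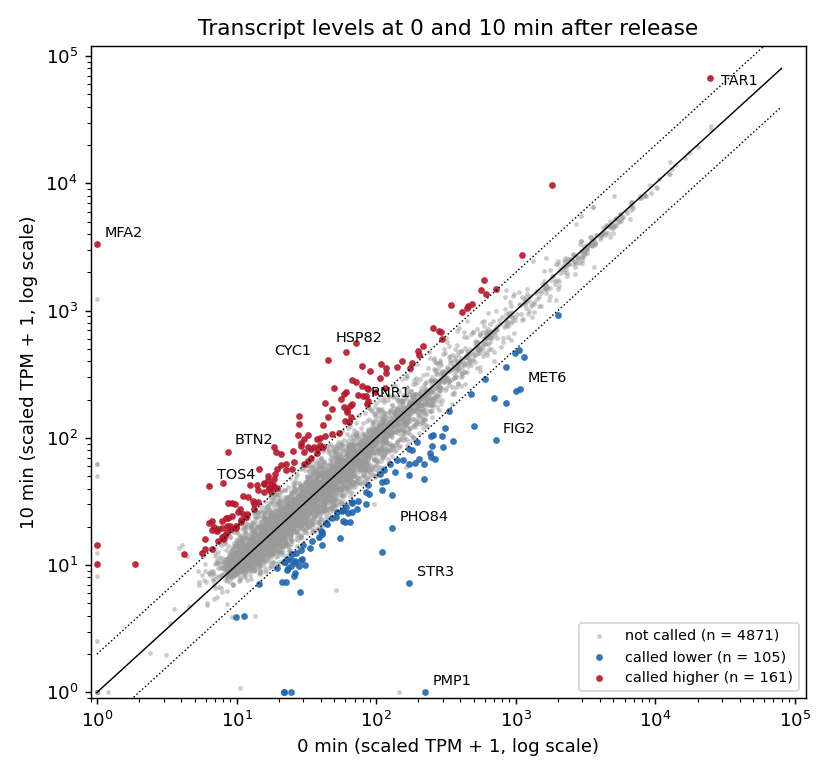
Scaled TPM + 1 at 10 min against 0 min on log axes, 1 point per feature (n = 5137), with the line of equality and dotted lines at a 2-fold change. Blue points are the 105 features called lower and red points the 161 called higher; MFA2 and PMP1 lie on the edges because they are listed at 0 TPM in 1 of the 2 columns.

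The identity of the cells was read from mating-type genes. The a-cell genes STE2 (receptor for alpha-factor, 256 TPM at 0 min and 193 at 10 min), AGA2 (the adhesion subunit of a-agglutinin, 1515 and 910) and STE6 (the exporter of a-factor, 35.7 and 35.8) were present. Of the alpha-cell genes, MF(ALPHA)1 had 0.73 and 0.88 TPM and STE3 3.66 and 3.68, while MF(ALPHA)2 had 21.6 and 14.4 and SAG1 13.9 and 10.6. Those last values are low beside AGA2 and STE2 but closer to those of STE6, and they are not 0. BAR1 was listed at 0 TPM in all 30 columns. The pheromone gene MFA1 was listed at 0 in both columns and reached 1633 TPM elsewhere in the series, and MFA2 was listed at 0 at 0 min and at 2492 TPM at 10 min. Both encode very short transcripts, and no fold is given for them.

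Genes that build the mating apparatus made up one block of the falls. Of 24 pheromone-induced mating and fusion genes in the list, 20 passed the filter on the mean, 5 fell and none rose, and 17 lay below 0. The list's median change was -0.45, whereas over all 5137 features it was -0.02 and the largest later step of the list's own median was 0.10. FIG2, a cell-wall adhesin of mating cells, had 559 TPM at 0 min, 70.8 at 10 min, then 68.5 at 20 min, and 55.3 as the median from 160 to 290 min. Its change was -2.91, or 7.59-fold, and its largest later step was 0.34. FIG1, a membrane protein needed for calcium uptake during mating, fell from 171 to 34.7 TPM (-2.22) and then to 18.3 at 20 min. PRM3, which acts in the fusion of nuclei, fell from 658 to 139.7 TPM (-2.17). PRM1, which acts in the fusion of plasma membranes, fell from 191 to 76.0 TPM (-1.27). AGA1, the anchor subunit of a-agglutinin, fell from 657 to 270.5 TPM (-1.22). On the scaled measure all 3 of FIG2, FIG1 and PRM3 were at 10 min still above their late medians, by 0.74, 2.29 and 2.48 log2 units.

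Other genes of the same response moved by less than 2-fold. KAR4, a transcription factor for karyogamy genes, had 116 TPM at 0 min and 72.2 at 10 min (-0.62), and PRM8 had 134.6 and 89.4 (-0.53). The kinase gene FUS3 had 95.2 and 88.5 TPM (-0.05), and FAR1 had 24.1 and 22.4 (-0.05). FUS1, which is often used as a reporter of the pheromone response, had 41.9 TPM at 0 min and 49.4 at 10 min (0.29). Its values over this step give no sign of the fall seen in FIG2. Its late median was 43.2 TPM as deposited, and deposited values of the first 2 time points sit low beside late ones. Among 6 a-specific genes that passed the filter, ASG7, an a-cell protein that acts on the pheromone pathway, fell from 781 to 174 TPM (-2.11, 4.32-fold), and MFA2 was called higher. The list's median was -0.17. None of the 12 components of the signalling cascade that passed the filter was called in either direction, and their median was -0.01. STE12 had 33.6 and 41.6 TPM (0.36), GPA1, the alpha subunit of the G protein, had 53.3 and 53.2 (0.06), and STE18 had 52.0 and 58.0 (0.21).

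The promoters of the mating genes are shown here because Ste12, the factor of this response, binds the pheromone response element, which was searched as tgaaaca on either strand. The windows below are the 250 bases before the start codon in the R64 assembly (RefSeq), on the gene's strand, with matches in capitals. PRM1 lies at chrXIV:110667-110916 on the plus strand and holds 3 matches, and PRM3 lies at chrXVI:183057-183306 on the minus strand and holds 1.
PRM1: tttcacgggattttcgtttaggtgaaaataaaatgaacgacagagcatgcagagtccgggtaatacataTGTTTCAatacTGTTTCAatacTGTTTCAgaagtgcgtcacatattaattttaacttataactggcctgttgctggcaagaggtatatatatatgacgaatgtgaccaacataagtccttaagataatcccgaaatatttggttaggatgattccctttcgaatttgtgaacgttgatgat
PRM3: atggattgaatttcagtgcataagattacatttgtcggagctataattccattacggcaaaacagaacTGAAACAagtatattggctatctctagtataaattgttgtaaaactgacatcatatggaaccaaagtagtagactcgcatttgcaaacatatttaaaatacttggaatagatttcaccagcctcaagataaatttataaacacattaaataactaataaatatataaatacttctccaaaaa
The matches in PRM1 stand close together, all in the reverse orientation. In windows of 250 bases before to 50 after the start codon, 11 of the 20 mating genes held a match (55.0%), against 7.49% of all 6007 promoters. Of the 5 that fell, 3 held one. FIG2 and FIG1, with the 2 largest falls of the list, held none in this window, and this says only that these letters are not there. Over all called features with a promoter in the annotation, the share was 9.30% of the 86 called lower and 9.93% of the 141 called higher.

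**Figure D3:**
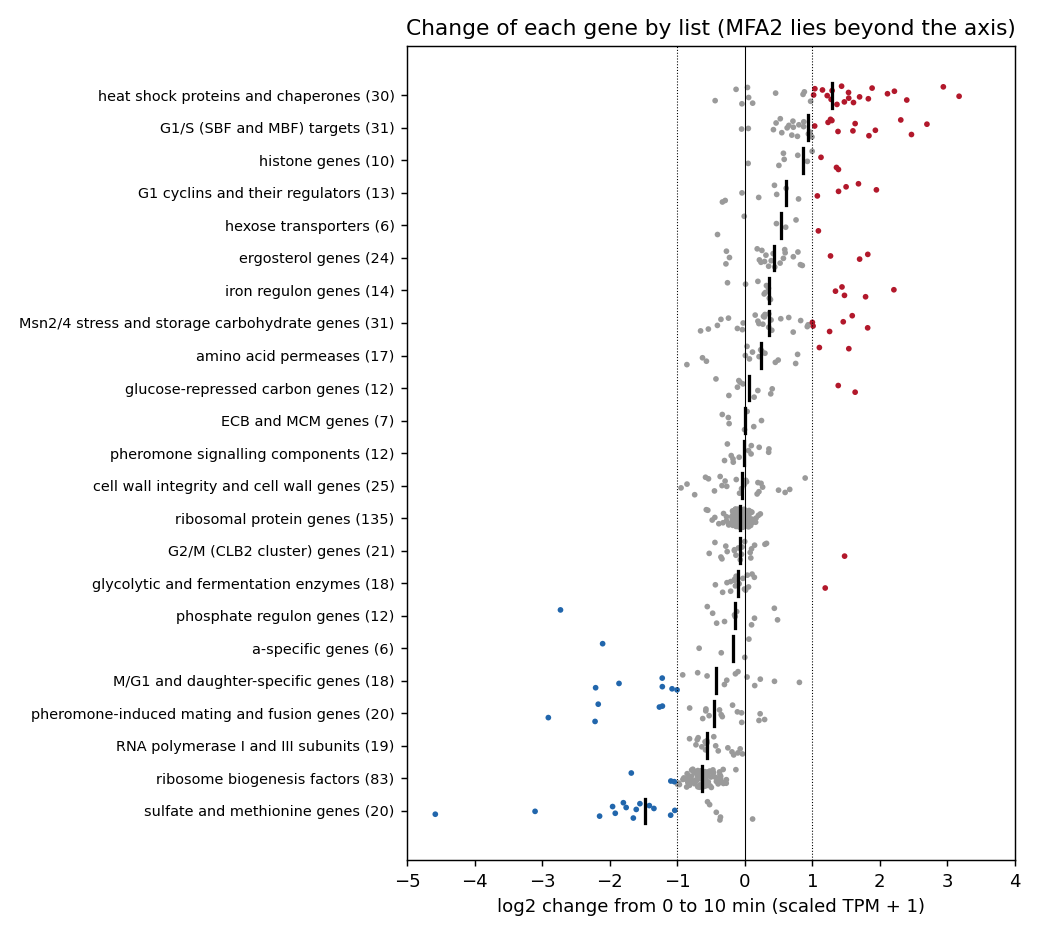
Change from 0 to 10 min of each gene in the 23 lists (log2 of scaled TPM + 1), with the number of genes that passed the filter in brackets. Blue points were called lower, red points higher, grey points neither, black bars are list medians and dotted lines mark a 2-fold change; the sulfate and methionine genes lie lowest with a median of -1.48 and the heat shock proteins highest with 1.29.

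Genes for taking up sulfate and making methionine fell more widely than the mating genes. Of 20 that passed the filter, 14 fell and none rose. The median was -1.48, against a largest later step of 0.08 for the same median. STR3, which makes homocysteine from cystathionine, fell from 134 TPM at 0 min to 4.63 at 10 min, with 4.76 at 20 min, against a late median of 8.93. Its change was -4.59, or 27.7-fold. MET28, a cofactor of Met4, fell from 85.0 to 8.81 TPM (-3.11). STR3 and MET28 passed the filter only through their 0 min values, since their means over the other time points were 8.38 and 8.93 TPM, and no other feature called lower did so. MET6, the methionine synthase, fell from 839 to 181 TPM (-2.15), with 127 as its late median. The transporters fell together with the enzymes: MUP1, the high-affinity methionine permease, had 275 and 69.4 TPM (-1.92), MMP1, which imports S-methylmethionine, had 206 and 50.3 (-1.96), and SAM3, which imports S-adenosylmethionine, had 190 and 52.0 (-1.80). SAM1, an S-adenosylmethionine synthetase, fell from 893 to 321 TPM (-1.41), and its close copy SAM2 had 321 and 240.0 (-0.36). Reads of such copies can be split between them by the quantifier, so the pair is uncertain.

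Several genes for the steps that reduce sulfate to sulfide were lower by 2-fold or more, whereas MET16, of the same steps, was not called. MET3, the ATP sulfurylase, fell from 36.9 to 16.9 TPM (-1.04), and MET14, the next kinase, from 90.6 to 33.8 (-1.35). MET5 and MET10, the subunits of sulfite reductase, fell from 23.2 to 6.79 TPM (-1.61) and from 46.7 to 20.6 TPM (-1.10). MET1, which makes the sirohaem of that enzyme, fell from 42.4 to 11.5 TPM (-1.76), whereas MET8, which acts after it, had 18.7 and 19.5 TPM (0.12) and was the only one of the 20 above 0. MET2, which activates homoserine, fell from 49.4 to 15.7 TPM (-1.55), and MET32, a DNA-binding partner of Met4, from 19.3 to 5.39 (-1.65). Some abundant genes of the list did not pass the rule. CYS3, which makes cysteine from cystathionine, had 948 and 705 TPM (-0.37), and MET17, which fixes sulfide, had 631 and 422 TPM (-0.52), then 184 at 20 min and 80.4 as its late median.

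**Figure D4:**
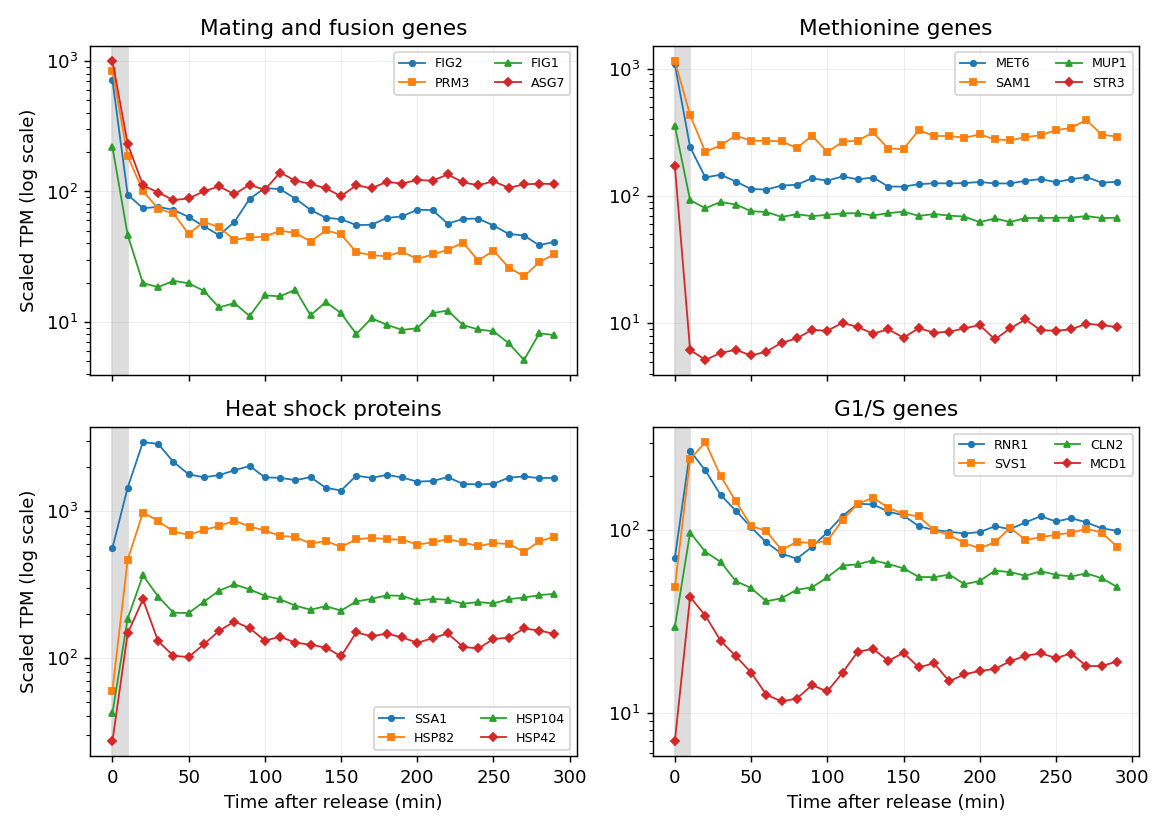
Scaled TPM on a log axis from 0 to 290 min for 4 genes of each of 4 lists, 1 library per point, with the first 10 min shaded. STR3 reaches a level below its late one within the shaded interval, FIG2 one still above, HSP82 and SSA1 go on rising to 20 min, and RNR1 and MCD1 are highest at 10 min.

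Cbf1 binds the palindrome cacgtg, which was searched after the falls had been seen. MET10 is shown because it holds 2 matches, in the 250 bases before its start codon at chrVI:213062-213311 on the plus strand, with the matches in capitals.
MET10: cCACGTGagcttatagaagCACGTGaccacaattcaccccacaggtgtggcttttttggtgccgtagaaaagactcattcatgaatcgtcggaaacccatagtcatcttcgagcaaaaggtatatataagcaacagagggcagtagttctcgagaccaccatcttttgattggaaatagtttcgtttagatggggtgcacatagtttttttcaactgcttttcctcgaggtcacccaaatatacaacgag
In the windows of 300 bases, 6 of the 20 genes of the list held this palindrome (30.0%), against 2.91% of all promoters. Of the 14 that fell, 3 held it, and MET6, STR3 and MUP1 did not.

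Genes expressed at the end of mitosis and in daughter cells also fell. Of 18 genes of this kind, 6 fell and none rose, with a median of -0.43. DSE1 and DSE2, which act in the degradation of the septum by daughter cells, fell from 21.5 to 3.87 TPM (-2.21) and from 100.5 to 25.98 TPM (-1.86). SCW11, a glucanase of the same programme, fell from 31.1 to 12.4 TPM (-1.22). PIR3 and PST1, which encode cell-wall proteins, fell from 120 to 48.99 TPM (-1.22) and from 110 to 49.6 TPM (-1.08). AMN1, which blocks exit from mitosis in daughters, fell from 40.2 to 18.9 TPM (-1.003). None of the 6 was highest in the arrest, and the late medians of DSE1, DSE2 and SCW11 were 39.3, 145 and 68.1 TPM. With a pseudocount of 10 only 3 of the 6 were called, and 4 with all steps from 30 to 290 min as the yardstick. CTS1, the chitinase that separates mother and daughter, had 272 and 138 TPM (-0.92) and missed the fold. The abundant HSP150 and CIS3 had 1279 and 1021 TPM (-0.27), and 745 and 971 TPM (0.44).

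The ribosome biogenesis factors all lay on one side of 0. All 83 lay below 0, from -1.68 to -0.13, with a median of -0.63, whereas the largest later step of the median was 0.15. Only 3 passed the rule, whereas 52 did with a fold of 1.5, and 6 with unscaled TPM. DBP2, an RNA helicase, fell from 188 to 55.6 TPM (-1.68), NSR1, a nucleolar protein, from 370.3 to 166 (-1.10), and NOP7, a factor for the large subunit, from 82.2 to 37.9 (-1.04). Of the most abundant members, NOP1, the methyltransferase of box C/D particles, had 719 and 435 TPM (-0.66), and GAR1, of the H/ACA particles, had 429 and 248 (-0.73). The 19 subunits of RNA polymerases I and III that passed the filter gave the same picture without a call: all lay below 0, with a median of -0.56, and RPA135 was lowest with 93.4 and 50.6 TPM (-0.82). The 135 ribosomal protein genes had a median of -0.07 and no call in either direction, with RPL29 at 12698 and 11708 TPM (-0.06) and RPS28A at 15647 and 14538 TPM (-0.05).

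PAC and RRPE are 2 motifs known from promoters of ribosome biogenesis genes, and were searched as gatgag and as aaaatttt. The 2 promoters below are shown because both genes fell and both hold each motif. NOP7 lies at chrVII:695167-695416 on the plus strand and NSR1 at chrVII:807657-807906 on the minus strand, with the matches in capitals in the 250 bases before the start codon.
NOP7: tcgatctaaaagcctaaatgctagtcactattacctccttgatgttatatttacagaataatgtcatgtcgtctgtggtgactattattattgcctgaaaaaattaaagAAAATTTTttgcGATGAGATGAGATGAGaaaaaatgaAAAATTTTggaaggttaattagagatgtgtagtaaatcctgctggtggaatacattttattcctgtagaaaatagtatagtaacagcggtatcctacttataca
NSR1: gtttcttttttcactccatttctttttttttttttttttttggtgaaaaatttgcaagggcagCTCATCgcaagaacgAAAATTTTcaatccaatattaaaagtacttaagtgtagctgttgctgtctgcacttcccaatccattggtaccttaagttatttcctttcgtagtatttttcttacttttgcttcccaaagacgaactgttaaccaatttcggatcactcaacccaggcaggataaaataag
PAC was in 79 of the 83 promoters of the list (95.2%), against 20.4% of all promoters, and RRPE was in 67 (80.7%), against 9.04%. Over the 86 features called lower with a promoter, PAC was in 25.6%, close to the share over all promoters.

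Chaperone genes formed the largest block of rises. Of 30 heat shock proteins and chaperones, 20 rose and none fell, 27 lay above 0, and the median was 1.29 against a largest later step of 0.14. BTN2, which gathers misfolded proteins, rose from 5.93 TPM at 0 min to 57.5 at 10 min, with 124 at 20 min (3.18, 10.1-fold). HSP82, the inducible Hsp90, rose from 46.7 to 350 TPM (2.94, 7.80-fold) and stood at 906 at 20 min, with a late median of 619. The disaggregase gene HSP104 rose from 32.8 to 139 TPM (2.11), and the small chaperone gene HSP42 from 21.1 to 110 TPM (2.40). The Hsp70 partners SIS1 and STI1 rose from 61.1 to 276 TPM (2.22) and from 70.1 to 251 TPM (1.89). Of the Hsp70 genes themselves, SSA1 rose from 438 to 1086 TPM (1.37) and SSA4 from 15.5 to 44.7 TPM (1.54), and SSA4 went on to 257 at 20 min. The mitochondrial chaperone genes HSP60, HSP78 and MDJ1 rose with changes of 1.54, 1.83 and 1.70. KAR2, the Hsp70 of the endoplasmic reticulum, rose from 224 to 503 TPM (1.22).

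Not all genes named for heat shock followed. HSP12, a membrane-bound stress protein, had 412 TPM in both columns (0.06) and 2219 as its late median, and HSP26 had 35.6 and 37.1 TPM (0.12) and 164. SSB1 and SSB2, the Hsp70 proteins of the ribosome, had 1547 and 1095 TPM (-0.44) and 1723 and 1513 TPM (-0.13). The summed level of the 30 genes was 7990 TPM at 0 min, 12130 at 10 min, then 23081 at 20 min, against 17633 to 19199 from 160 to 290 min. In deposited TPM the sum was thus below its late range at 10 min and above it at 20 min, in a culture that was both grown and released at 38.5°C. Of 31 genes of the Msn2/4 stress response and of storage carbohydrates, 6 rose and none fell, with a median of 0.35. DDR2 rose from 91.0 to 265 TPM (1.59), TSL1, a subunit of trehalose synthase, from 16.9 to 45.9 (1.46), and the hexose kinases HXK1 and GLK1 from 82.9 to 283 (1.82) and from 318 to 730.3 (1.26). SOL4 and TMA10 passed the rule at 1.01 and 1.001.

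The core of the heat shock element, searched as gaannttc, was in 12 of the 30 promoters (40.0%), against 11.8% of all promoters, and in 9 of the 20 genes that rose (45.0%). STI1 is shown because it holds 2 such cores, in the 250 bases before its start codon at chrXV:380803-381052 on the plus strand, with the cores in capitals.
STI1: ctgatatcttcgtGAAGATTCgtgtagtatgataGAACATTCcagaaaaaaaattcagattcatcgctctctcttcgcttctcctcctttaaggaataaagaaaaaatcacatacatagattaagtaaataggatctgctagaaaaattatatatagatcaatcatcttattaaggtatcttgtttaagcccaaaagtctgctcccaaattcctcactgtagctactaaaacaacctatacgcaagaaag
HSP82 held no such core in its window. The stress response element, agggg, was in 32.6% of the 141 features called higher with a promoter, against 21.6% of all promoters.

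Genes of the next cell-cycle phase rose as well. Of 13 G1 cyclins and their regulators, 5 rose and none fell, with a median of 0.61, and 3 were called with a pseudocount of 10. CLN2 rose from 23.04 to 72.8 TPM (1.68), with a largest later step of 0.18, and stood at 70.4 at 20 min. CLN1 rose from 6.48 to 17.5 TPM (1.39), and PCL1, a cyclin of the kinase Pho85, from 20.5 to 78.3 (1.95). NRM1, a repressor of MBF, rose from 8.66 to 24.9 TPM (1.501), and SWI4, the DNA-binding subunit of SBF, from 5.63 to 12.2 (1.08). CLN3, the cyclin that acts first, had 47.8 TPM at 0 min and 36.3 at 10 min (-0.33), and SIC1, the inhibitor of the S-phase kinase, had 18.8 and 25.3 (0.47).

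Of 31 targets of SBF and MBF that passed the filter, 12 rose and none fell, and 30 lay above 0. The median was 0.94 against a largest later step of 0.06. TOS4, a regulator bound at promoters, rose from 4.20 to 30.3 TPM (2.70, 7.51-fold). MCD1, a subunit of cohesin, rose from 5.42 to 32.2 TPM (2.47, 6.19-fold), and SVS1, a cell-wall protein, from 37.9 to 184 (2.31). The replication genes RNR1, of ribonucleotide reductase, POL30, the sliding clamp, CDC21, the thymidylate synthase, POL1, of DNA polymerase alpha, and RAD27, the flap endonuclease, had changes of 1.93, 1.84, 1.29, 1.23 and 1.04. RNR1 had 55.1 TPM at 0 min, 204 at 10 min, then 197 at 20 min, and 101 as its late median. The S-phase cyclin CLB5 rose from 9.44 to 22.9 TPM (1.27). YOX1, a repressor of the preceding phase, rose from 19.1 to 58.6 TPM (1.64), MNN1, a mannosyltransferase, from 10.2 to 31.2 (1.60), and GIN4, a kinase of the bud neck, from 7.43 to 19.8 (1.38). RFA3, a subunit of the single-strand binding protein, had the highest mean of the list and a change of 0.63.

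The MBF site is acgcgt and the SBF site is cacgaaa. CDC21 and SVS1 are shown as one promoter of each kind, with the 2 matches of each in capitals in the 250 bases before the start codon. CDC21 lies at chrXV:467590-467839 and SVS1 at chrXVI:242701-242950, both on the minus strand.
CDC21: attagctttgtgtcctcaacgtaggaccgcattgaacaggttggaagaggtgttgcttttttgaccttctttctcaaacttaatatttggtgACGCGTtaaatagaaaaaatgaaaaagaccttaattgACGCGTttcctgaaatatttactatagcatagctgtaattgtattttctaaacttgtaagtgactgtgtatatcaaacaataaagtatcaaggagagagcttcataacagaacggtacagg
SVS1: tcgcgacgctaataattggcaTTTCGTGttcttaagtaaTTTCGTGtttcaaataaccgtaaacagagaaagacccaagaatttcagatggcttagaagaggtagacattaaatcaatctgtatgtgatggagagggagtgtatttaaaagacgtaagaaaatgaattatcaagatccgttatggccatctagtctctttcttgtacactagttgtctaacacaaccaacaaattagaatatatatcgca
The MBF site was in 13 of the 31 promoters of the list (41.9%), against 3.06% of all promoters, and in 4 of the 12 genes that rose. The SBF site was in 4 of the 31 (12.9%), against 4.20%, and 3 of these 4 genes rose. RNR1 and TOS4 held the SBF site and not the MBF site in these windows. Over the 141 features called higher with a promoter, the MBF site was in 9.93%, and over the 86 called lower it was in 1.16%.

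**Figure D5:**
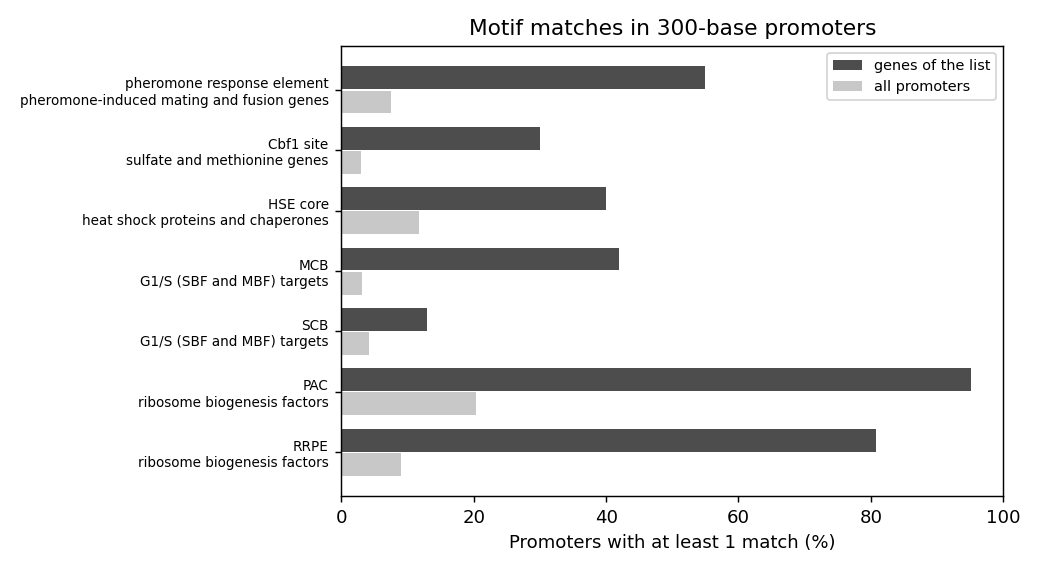
Share of promoters (300 bases, from 250 before to 50 after the start codon) with at least 1 match to a motif on either strand, for the genes of a list (dark bars) and for all 6007 promoters (light bars). PAC in the ribosome biogenesis factors reaches 95.2% against 20.4%, and the MBF site (MCB) in G1/S targets 41.9% against 3.06%; the match is a description of letters and not of binding.

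Histone genes, which are made in S phase, lay above 0 in all 10 cases, with a median of 0.86, and 3 of them rose. HTB2 had 119 TPM at 0 min, 301 at 10 min, then 817 at 20 min (1.39 over the first step). HTA2 had 47.5, 118 and 357 TPM (1.36), and HHF2 had 475, 999.6 and 1723 TPM (1.13). HHT1 had 729 and 725 TPM (0.05) before it reached 1543 at 20 min. Yeast histone genes come in near-identical pairs, so the split within a pair is uncertain. The 7 genes of the MCM helicase and FKH1 list gave no call (median -0.00). Of 21 genes listed as G2/M, most of them from the CLB2 cluster that peaks in mitosis, only YHP1 was called. It rose from 12.3 to 34.1 TPM (1.48), and the list's median was -0.07. YHP1 encodes a repressor like YOX1 and is not a known member of that cluster, so its call says nothing of mitotic genes. CLB2 itself had 6.72 and 6.45 TPM, against a late median of 21.4.

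Other nutrient lists moved in part. PHO84, the high-affinity phosphate transporter, fell from 101 to 13.9 TPM (-2.73, 6.94-fold) and had 12.7 at 20 min, but it was the only 1 of 12 phosphate genes that was called, and the list's median was -0.15. Of 14 iron regulon genes, 5 rose and none fell, with a median of 0.36. HMX1, a haem oxygenase, rose from 13.6 to 62.9 TPM (2.21), the oxidase and permease of high-affinity iron uptake, FET3 and FTR1, from 49.9 to 131 (1.44) and from 81.8 to 220 (1.48), the siderophore transporter SIT1 from 8.86 to 31.3 (1.79), and TIS11, which degrades messages of iron-using proteins, from 7.24 to 18.8 (1.34). FIT3 and FIT2, cell-wall proteins that hold siderophores, had 146 and 160 TPM (0.19) and 123 and 98.8 TPM (-0.26). Of 24 ergosterol genes, 3 rose and none fell, and the median was 0.43: ERG3 and ERG5, the desaturases, rose from 266 to 833 TPM (1.70) and from 36.6 to 126 TPM (1.82), and HMG1, a reductase of the early pathway, from 32.8 to 76.9 (1.27). OLE1, the fatty acid desaturase, went the other way, from 391 TPM at 0 min to 91.9 at 10 min, with 40.5 at 20 min (-2.02, 4.09-fold), below its late median of 256. CYB5, the cytochrome that serves such enzymes, rose from 51.5 to 212 TPM (2.08).

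Each list of sugar genes or permeases held 1 or 2 called features, all of them higher. Over all features compared, 3.13% were called higher. HXT7 was the only one of 6 hexose transporters called, from 88.8 to 182 TPM (1.09). Its near-identical copy HXT6 had 5.81 and 2.11 TPM and did not pass the filter, so the pair is uncertain. The list's median was 0.54, with HXT3 at 487 and 713 TPM (0.61). Of 12 glucose-repressed genes, CYC7 (6.80 to 21.9 TPM, 1.64) and ACO1 (62.3 to 158 TPM, 1.38) rose, and the median was 0.06. Of 18 glycolytic and fermentation enzymes, HXK2 rose from 380 to 834 TPM (1.19), and the median was -0.11, with TDH3 at 19550 and 19511 TPM (0.06). Of 17 amino acid permeases, DIP5 (29.1 to 61.0 TPM, 1.11) and PUT4 (4.55 to 14.2 TPM, 1.54) rose, and the median was 0.24, but neither was called with a pseudocount of 10. PUT4 passed the filter only through its 10 min value, with a mean of 9.96 TPM over the other time points. BAP2 had 168 and 88.6 TPM (-0.86). None of the 25 cell wall genes was called, with a median of -0.05. SLT2, the kinase of the cell wall integrity pathway, had 88.0 and 43.6 TPM (-0.94).

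Outside the lists, 75 of the 105 features called lower and 99 of the 161 called higher remained. CYC1, the main cytochrome c, rose from 34.4 TPM at 0 min to 304 at 10 min, with 428 at 20 min (3.17, 9.19-fold). TOS6, a cell-wall protein, rose from 55.1 to 414 TPM (2.95), and LPX1, a peroxisomal lipase, from 14.1 to 57.1 (2.01). TAR1, a reading frame on the strand opposite the large ribosomal RNA, was called higher, with 19102 TPM at 0 min, 50013 at 10 min, then 20520 at 20 min (1.45), and YLR154W-A of the same locus went from 1419 to 7266 and back to 1923 TPM (2.41). The 4 reading frames of that locus that passed the filter summed to 20716, 57392 and 22508 TPM at 0, 10 and 20 min, against 12025 to 20965 from 160 to 290 min. TPM of a library sum to 1000000, so the share of one group bears on the shares of others. The summed TPM of the ribosomal protein genes went from 410934 at 0 min to 380373 at 10 min. The unscaled median change of features above 0 was -0.08, and its link with either sum was not tested. The strand setting of the counting is not given in the sources used here, so reads of TAR1 and of ribosomal RNA cannot be told apart. The part of ribosomal RNA in the values of this locus was not tested. LSR1, the U2 spliceosomal RNA, had a like course, from 140 to 289 and back to 156 TPM (1.10).

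Of the called features, 7 were listed at 0 in 1 of the 2 columns, and no fold is given for them. PMP1, which encodes a very small membrane protein, had 173 TPM at 0 min, 0 at 10 min, then 60.6 at 20 min. PAU7 had 18.4 TPM and then 0, and snR14 had 0 and then 10.1. YAR010C and YPR137C-A had the same values, 16.4 and then 0, and YLR157W-D had 0 and then 6.85, and features with such close copies elsewhere in the table are uncertain. MFA2, described above, had later steps nearly as large as its rise (11.5 against 11.7), and the calls of MFA2 and PAU7 were lost both without the scaling factors and with factors from the 0 and 10 min columns alone. At 20 min snR14 was again listed at 0, and PMP1, PAU7, YAR010C and YPR137C-A were again above 0.

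The called features differed in their course over the series. The rule used the 0 and 10 min values, so how these rank in the series is a description of the called features only. The same holds for the changes from 0 to 20 min, which share the 0 min library with the rule. A 0 min value that was itself high or low would show at 20 min too. The contrast with all features compared therefore follows in part from the selection. Of the 105 called lower, 78 (74.3%) had their highest value of the whole series at 0 min, against 25.9% of all 5137 features. At 20 min, 73 (69.5%) were still at least 2-fold below 0 min and 104 (99.0%) were below it. Over all features compared these shares were 3.85% and 53.2%. At 10 min, 72 were within 2-fold of their median from 160 to 290 min, 22 were at least 2-fold below it and 11 at least 2-fold above it. Of the 161 called higher, 125 (77.6%) had their lowest value at 0 min, against 18.8% of all features compared. Their highest value fell at 10 min in 56 cases and at 20 min in 47, and 127 were at least 2-fold above 0 min at 20 min. Had the 101 fallen features with a level in both columns declined at a constant rate, their levels would have halved every 2.09 min (STR3) to 9.82 min, with a median of 7.35 min. The 2-fold rule sets the longest of these times and leaves out slower falls, so it shapes the median too. The shortest time is that of STR3, which passed the filter only through its 0 min value. These are net rates, in which new synthesis and decay cannot be told apart.

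The features beside the threshold differed little across it. AMN1 (-1.003) and TMA16 (-1.005) lay just inside the rule for falls, and ARX1 (77.0 to 36.6 TPM, -0.999) and TOD6 (30.9 to 14.5 TPM, -0.997) lay just outside. For rises, TMA10 (1.001) and PEX17 (6.90 to 14.02 TPM, 1.002) lay just inside, and HHO1 (43.5 to 84.2 TPM, 0.998) and RFA1 (18.1 to 35.4 TPM, 0.995) just outside. A further 11 features changed 2-fold downwards and 18 upwards without being called, because a later step was as large. The called features with a length in the annotation were of usual size. Their median open reading frame was 1290 bases for 86 of the 105 called lower and 1065 for 141 of the 161 called higher. Over the features compared that had a length, it was 1164.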

How the data were processed

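RNA of 1 library per time point, prepared with the Illumina Stranded mRNA Prep, was aligned with STAR and quantified with RSEM by the authors against build R64, according to the submitters' processing notes. Versions and strand setting are not given in the sources used here. The authors deposited TPM for 7127 features at 30 time points, and each column sums to 1000000. A second deposited table of corrected scores was not used. Labels and methods state the alpha-factor dose in different units, so none is given.

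Columns were matched to samples by the time in their labels. TPM were divided by median-of-ratios factors over the 6170 features above 0 in all columns, and changes were taken as log2 of (scaled TPM + 1). The filter, the call rule and the later steps are stated with the results. No p-value was computed. Genes named are the 15 largest called falls and the 15 largest called rises with a gene name, and in each of 23 lists the called members and the 3 with the highest mean TPM. Further genes of the lists, and genes near the threshold, were added after their values were seen. The members and lists were chosen with earlier results of these data known. Names and promoters came from the R64 assembly in RefSeq, by locus tag, for 4773 of the 5137 features (92.9%), leaving out 19 called lower and 20 called higher. Motifs were counted on both strands, and overlapping matches of different motifs were each counted. The scripts ran in Python 3.11.15 with numpy 2.4.6, pandas 2.3.3 and matplotlib 3.10.9, and were tested on simulated data with known changes. The 12 alternatives tried changed the scaling, the pseudocount, the filter, the yardstick or the fold.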

Additional observations from a re-analysis of the deposited data

How the results depend on the processing

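Each time point has 1 library, so every value here lacks a replicate and no sample could be left out. No paired analysis was possible because no time point has a second sample. The counts of calls depended on the fold and on low values. With a fold of 1.5 there were 380 features lower and 421 higher, and with a fold of 4 there were 14 and 19. With a mean of at least 50 TPM there were 43 and 85, with a pseudocount of 10 there were 58 and 101, and with no filter on low values 164 were lower. The remaining alternatives gave 94 to 153 lower and 134 to 200 higher, and TPM without scaling factors gave 122 and 134. Of 92 list medians under 4 alternatives, 72 moved by less than 1 SD of the median's later steps. With a pseudocount of 10 the medians were -0.36 for mating and fusion genes, 0.45 for G1 cyclins, 0.65 for G1/S targets, -0.34 for M/G1 genes, -0.52 for ribosome biogenesis factors, -0.41 for polymerase subunits, 1.15 for heat shock proteins, 0.24 for Msn2/4 genes, -1.13 for sulfate and methionine genes and 0.24 for iron genes. With unscaled TPM they were 0.55 for G1 cyclins, 0.88 for G1/S targets, -0.61 for polymerase subunits, -0.20 for phosphate genes, -1.53 for sulfate and methionine genes, 0.18 for permeases, -0.11 for cell wall genes, 0.37 for ergosterol genes and 0.30 for iron genes. With a pseudocount of 0.1 the G1/S median was 0.98. The medians of the pheromone signalling and MCM lists, both near 0, changed sign under factors from the 0 and 10 min columns alone, and the first also under a pseudocount of 10. Over 156 named genes and 4 alternatives, 592 values kept their side of the rule, 32 lost a call and none of the called values changed direction. Without scaling, PAU7, MFA2, SWI4, SOL4, SSC1, RAD27, TMA10 and HSP10 lost theirs, with factors from the 0 and 10 min columns alone PAU7, AMN1 and MFA2 did, and with a pseudocount of 10 AMN1, PST1, SCW11, MET3, MET10, NOP7, YPR137C-A, SWI4, CLN1, GIN4, POL1, RAD27, CLB5, TIS11, APJ1, SSC1, SOL4, TMA10, PUT4, DIP5 and YLR157W-D did.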

Other observations

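Genes of mitochondrial respiration lay above 0 as a group. This list and the others of this section were put together after the values were seen, so they describe the data and give no independent support. Of 25 subunits of the respiratory chain and cytochromes, 6 rose and none fell, and the median change was 0.77, against a largest later step of 0.08 for the same median. Besides CYC1, the cytochrome c1 gene CYT1 went from 46.3 TPM at 0 min to 171 at 10 min (1.92), the Rieske protein gene RIP1 from 45.2 to 165 (1.91), COX5A, a subunit of cytochrome oxidase, from 66.9 to 179.7 (1.47), and QCR9, of the cytochrome bc1 complex, from 47.1 to 122 (1.41). COX8 had 109 and 68.7 TPM (-0.60) and COX9 had 1003 and 816 (-0.24). The summed level was 2799 TPM at 0 min, 4092 at 10 min, then 4373 at 20 min, against 3604 to 4117 from 160 to 290 min. These are sums of deposited TPM, with factors of 0.778 at 0 min and 0.748 at 10 min against 0.904 to 1.03 late. The first 2 sums therefore sit low beside the late ones on the scaled measure. None of 13 ATP synthase subunits was called, with a median of 0.47. Of 12 enzymes of the tricarboxylic acid cycle, 4 rose and none fell, with a median of 0.38: the 2 subunits of isocitrate dehydrogenase, IDH1 (56.5 to 161 TPM, 1.56) and IDH2 (75.6 to 172 TPM, 1.24), the citrate synthase CIT1 (51.5 to 137 TPM, 1.46) and ACO1. HAP1, a haem-responsive activator of respiratory genes, fell from 16.4 to 7.12 TPM (-1.07).

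Genes for leucine, isoleucine and valine fell in part. Of 12 genes in this list, 3 fell and none rose, and the median was -0.20. LEU2, a dehydrogenase of leucine synthesis, fell from 233 TPM at 0 min to 62.9 at 10 min, with 19.9 at 20 min (-1.82), OAC1, a mitochondrial carrier, from 133 to 37.4 and 21.4 (-1.75), and ILV5, an enzyme of the common pathway, from 1550 to 689 and 478 (-1.11). LEU1 and BAT1 had 431 and 473 TPM at 0 min, 267 and 409 at 10 min, and 79.6 and 169 at 20 min, so that both differences were larger from 10 to 20 min than over the first step. NRD1, which terminates transcription of short RNAs, fell from 194 to 63.6 and then 30.7 TPM (-1.54), below its late median of 49.9.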
